A study of Mus musculus with 4 samples.

Results

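Chromosome 1 outside a short distal window was followed in 4 liver tumours of mice, in which it stood at a raised, nearly level copy-number ratio in tumour 1 and close to the autosomal median in the others. Its members were 11790 of the 169093 array probes placed on chromosomes 1 to 19, X and Y. They are the probes that are not controls and have a chromosome 1 position on the mouse build mm9, less 144 probes that start between 173000000 and 174500000. The chromosome was chosen by its mean log2 ratio in these same tumours, so that mean and whatever follows from it are described here without a test.

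Array comparative genomic hybridization measured genomic DNA. Tumour DNA carried Cy5 and reference DNA Cy3, the 2 were hybridized to the same 60-base or slightly shorter probes, and each value is log2 of tumour over reference. The tumours, 1 per mouse, came from untreated male mice labelled Trp53-/-, on a C57BL/6J background and with a loss of Trp53 that the series title limits to the liver. The reference was spleen DNA pooled from 3 littermates of the same sex, labelled with the same genotype and sex (the labelling protocol names liver instead). Neither the driver of the deletion nor the age of the mice is given in the sources used here. The 4 tumours form 1 group, numbered 1 to 4 without an order, and no second group exists. Tumours 1 and 2 shared 1 slide and tumours 3 and 4 the other.

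Chromosome 1 is the longest mouse chromosome. It has its centromere at one end, and much of its distal part corresponds to the long arm of human chromosome 1, which is often gained in human liver cancer. A gain or loss of a whole chromosome moves every probe on it by the same amount, whereas a gain or loss of an arm or a segment leaves a step in the profile. Where the change is present in some cells of the sample and not in others, the shift is smaller but still level.

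Some facts of the arrays bear on what follows. The SD between neighbouring probes on arrays 1 to 4 was 0.12, 0.37, 0.15 and 0.16 (log2), and for tumour 2 the scanner software marked both the spread and the ratio imbalance as out of range. Chromosomes X and Y went against the male label on 2 arrays. Chromosome X averaged -0.82 and Y 2.22 on array 1, against 0.84 and -2.35 on array 4, and both lay between -0.20 and -0.0061 on arrays 2 and 3. Within single channels, X lay -0.073 from the autosomal median in the reference of array 1 and -0.080 from it in the tumour of array 4, and between -0.99 and -0.89 in the other 6 channels. Over the autosomal probes no pair of arrays ran in opposite directions, with Pearson's r of 0.14, 0.21 and 0.18 between array 1 and arrays 2, 3 and 4. The 2 probes of the targeted gene Trp53 on chromosome 11 pointed opposite ways (-0.53, -0.78, -0.073 and -0.76 at 69397121 to 69397180, and 0.14, 0.51, 0.31 and 0.17 at 69404685 to 69404744, in tumours 1 to 4). Since the deleted stretch is not given in the sources used here, these probes check nothing.

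Sequences of 10 of the probes are shown. The first 6 are nearest to the centres of 5 Mb bins: the 3 with the most G and C, then the 3 with the least. They are shown because base composition is compared with the ratios further on. In that order they held 36.7%, 42.9%, 36.7%, 36.7%, 35% and 38.3% G and C, so a single probe need not follow its bin. The last 4, chosen after their values were seen, begin and end the 2 multi-probe stretches at which the segmented profile of a tumour left its level. Runs of at least 3 G or C letters are in capitals, and the strand of the probes is not given in the sources used here.
Sp100, chr1:87560175-87560234: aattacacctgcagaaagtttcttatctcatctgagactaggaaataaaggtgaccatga
AF482000, chr1:92499776-92499824: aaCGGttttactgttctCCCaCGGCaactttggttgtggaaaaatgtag
AK122458, chr1:137502906-137502965: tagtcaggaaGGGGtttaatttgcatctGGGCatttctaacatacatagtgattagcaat
BC040767, chr1:47501200-47501259: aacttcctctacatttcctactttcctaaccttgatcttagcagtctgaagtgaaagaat
no gene name, chr1:112506431-112506490: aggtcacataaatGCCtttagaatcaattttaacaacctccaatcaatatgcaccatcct
Kcnt2, chr1:142501637-142501696: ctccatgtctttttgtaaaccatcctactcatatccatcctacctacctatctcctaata
Ifi203, chr1:175868140-175868199: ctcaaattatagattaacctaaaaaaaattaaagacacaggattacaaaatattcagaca
Ifi202b, chr1:175901550-175901609: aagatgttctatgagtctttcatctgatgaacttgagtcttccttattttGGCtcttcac
Sdccag8, chr1:178753922-178753981: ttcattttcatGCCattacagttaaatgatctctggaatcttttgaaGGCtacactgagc
Sdccag8, chr1:178848691-178848750: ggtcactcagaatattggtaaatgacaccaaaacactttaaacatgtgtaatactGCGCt
A single probe carries little of the shift. In tumour 1 the first 6 probes read 0.087, 0.13, 0.18, -0.031, 0.086 and 0.098, around a chromosome mean of 0.088, and the SD over all members was 0.13. The shift therefore shows in averages over many probes.

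Members ran from 3002738 to 197188286 with a median spacing of 11101 bp. Of them, 7541 carried a gene name, for 1347 different names, and 98.9% were well above background in both channels on all 4 arrays. A single member of tumour 2 had no usable spot and was left out there. The mean G and C content of the members, 36.4%, was close to the 36.5% of all autosomal probes.

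Chromosome 1 averaged 0.088 in tumour 1, -0.033 in tumour 2, 0.0020 in tumour 3 and 0.015 in tumour 4. Tumour 1 was the highest and did not come near the others, which lay within 0.05 of each other. The average was 0.018 ± 0.051 (SD, n = 4), so the mean over the tumours was smaller than their spread, and without tumour 1 it was -0.0054. Without tumour 4, whose array also went against its sex label, it was 0.019. The average was 0.028 for the tumours of 1 slide (1 and 2) and 0.0084 for those of the other (3 and 4). As a linear ratio, tumour 1 stood at 1.06 of the reference. For scale, in a mixture of cells with 2 and with 3 copies, and with the autosomal median taken as 2 copies, this ratio is what 12.7% of cells with 3 copies would give. With the sign of tumour 1 turned it is what 11.9% of cells with 1 copy would give. The share of cells with a changed copy number was not measured.

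**Figure D1:**
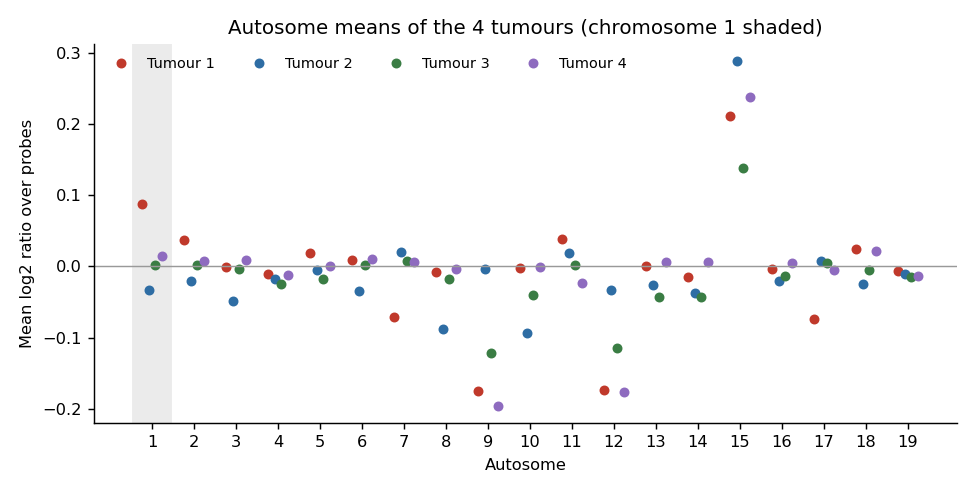
Mean log2 ratio of tumour over reference over the probes of each autosome (x axis, autosomes 1 to 19; points, 1 per tumour; chromosome 1 without the left-out window is shaded). In tumour 1 chromosome 1 lies at 0.088, below chromosome 15 at 0.21 and above all other autosomes.

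In tumour 1 chromosome 1 had the second highest mean of the 19 autosomes, or the second lowest with the sign of tumour 1 turned. Chromosome 15 stood at 0.21 in that tumour, and chromosomes 9 and 12 stood at -0.175 and -0.173, all further from 0 than chromosome 1. The 15 autosomes other than 1, 9, 12 and 15 lay between -0.074 and 0.039 with an SD of 0.032. Chromosomes 8 and 10, of middling length, averaged -0.0079 and -0.0022. In tumours 2, 3 and 4 chromosome 1 ranked 13th, 5th and 3rd, and its mean lay within the range of those 15 autosomes, which was -0.093 to 0.020 in tumour 2, -0.043 to 0.0083 in tumour 3 and -0.023 to 0.021 in tumour 4. Chromosome 15 was above chromosome 1 in 4 of 4 tumours, at 0.29, 0.14 and 0.24 in tumours 2 to 4. Chromosomes 9 and 12 read -0.0031 and -0.034 in tumour 2, -0.121 and -0.115 in tumour 3, and -0.195 and -0.176 in tumour 4. On the same scale of 2 and 3 copies, the chromosome 15 ratio of tumour 1 corresponds to 31.6% of cells with 3 copies, or to 27.3% with 1 copy if its sign is turned.

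The channels were looked at apart, since a ratio can rise through either. Relative to the autosomal median of the same channel, chromosome 1 stood at 0.059 in the tumour channel of array 1, against -0.097, -0.0042 and -0.023 in those of arrays 2 to 4. In the reference channel it stood at -0.038 on array 1, within the range of -0.080 to -0.021 of the other 3. The tumour channel of array 1 was the highest of its kind and that of array 2 the lowest. The dye of each sample is taken from the labels, and with the sign of tumour 1 turned its mean would be -0.088. Whether samples of arrays 1 and 4 were exchanged was not tested.

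The profile was then read in 40 bins of 5 Mb, each holding 149 to 425 members. In tumour 1 all 40 bins were at or above 0.05, where 15.1% of the 502 autosomal bins of that array were (51.4% of them were above 0), and none was at or below -0.05 (18.1%). They ran from 0.061 to 0.12 with a median of 0.088, and the standard error of a bin from the scatter of its probes was 0.0054 to 0.010. Tumour 1 was the highest of the 4 in all 40 bins, against 31.1% of all autosomal bins. With its sign turned it was the lowest in 33 of the 40, against 23.9%. Its excess over the mean of the others ran from 0.070 to 0.13. In bins of 1 Mb, all 190 with at least 20 probes were above 0 in tumour 1, from 0.036 to 0.15, where 51.2% of autosomal bins of that size were. In tumours 2, 3 and 4 the bins of 1 Mb above 0 numbered 52, 108 and 133, against 37.5%, 35.7% and 53.4% of autosomal ones. Since the mean of tumour 1 drew attention to the chromosome, these counts describe how far the shift reaches and test nothing.

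**Figure D2:**
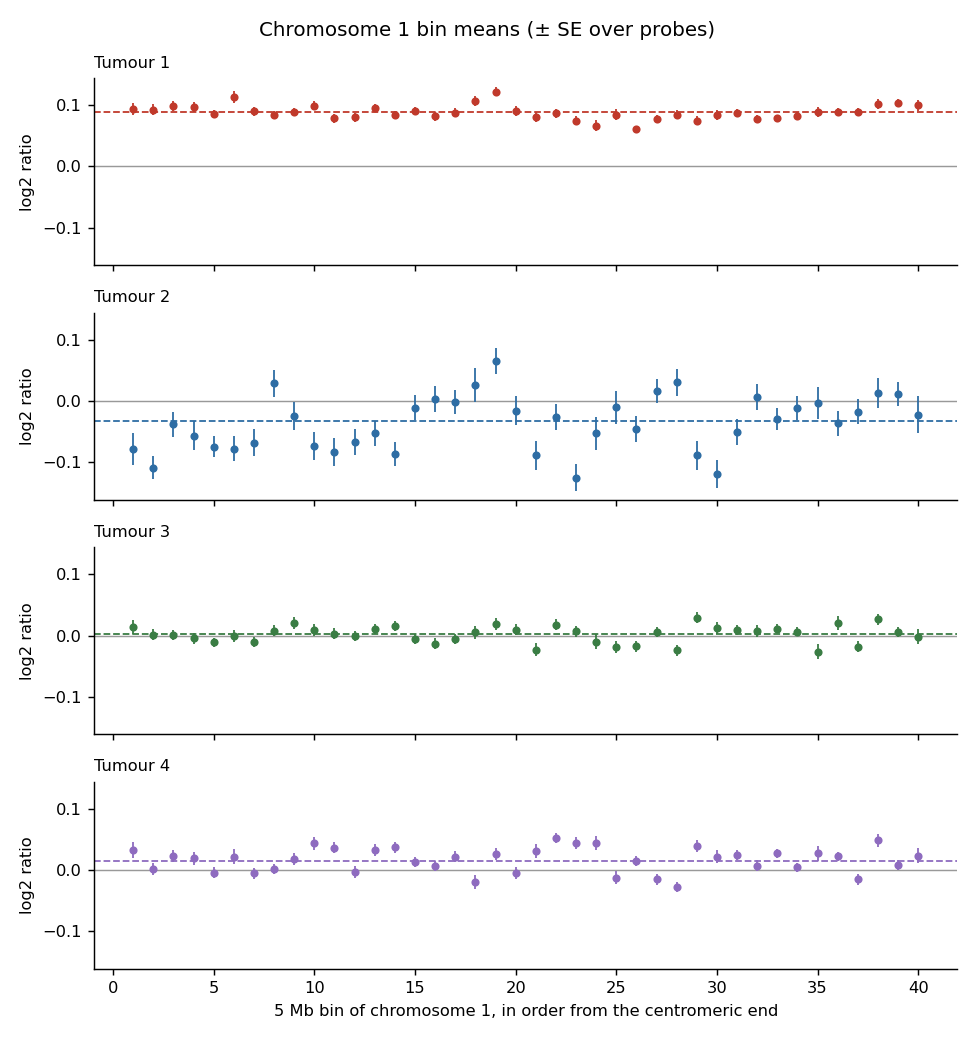
Mean log2 ratio of each 5 Mb bin of chromosome 1 (x axis, bin number from the centromeric end; y axis, log2 ratio), 1 panel per tumour; bars are 1 standard error over the probes of a bin, dashed lines the chromosome mean. All 40 bins of tumour 1 lie between 0.061 and 0.12, whereas those of tumours 2, 3 and 4 fall on both sides of 0.

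The other tumours had bins on both sides of 0. In tumour 2 the bins ran from -0.13 to 0.065, with 31 below 0 and 9 above (33.3% of autosomal bins were above 0). There 17 bins were at or below -0.05 (36.5% of autosomal bins of that array) and 1 was at or above 0.05 (16.1%). In tumour 3 they ran from -0.027 to 0.029 with 24 above 0 (32.5%), and none passed 0.05 in either direction, where 4.38% of its autosomal bins were at or above 0.05 and 14.7% at or below -0.05. In tumour 4 they ran from -0.028 to 0.052, with 31 of 40 above 0 (52.8%), and 1 was at or above 0.05 (7.57% of autosomal bins) and 0 at or below -0.05 (13.7%).

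Whether the shift of tumour 1 was even along the chromosome was asked in several ways, none of which gives a p-value for a single array. The 13 most proximal bins averaged 0.093, the next 13 averaged 0.086 and the 14 most distal averaged 0.087. The first bin, next to the centromere, read 0.095 and the last, at the telomere, 0.10. The proximal 20 bins averaged 0.094 and the distal 20 averaged 0.084, a difference of -0.0097 beside a shift of 0.088. Among the other 18 autosomes of array 1, the distal minus proximal difference ran from -0.030 to 0.033, and 5 of the 18 had a larger one in size. The shift thus reached both ends at nearly the same height.

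The bins of tumour 1 were nevertheless not identical within counting of probes. Their SD was 0.012 where the scatter of probes alone would give 0.0075, a ratio of 1.58, and 34 of the 40 lay within 2 standard errors of the chromosome mean. This ratio ran from 1.24 to 3.83 over the other autosomes of the array with a median of 1.84, so chromosome 1 was the 7th lowest of 19. It was 1.48 for chromosome 15, 1.39 for chromosome 8 and 1.46 for chromosome 10. Bin profiles from the odd and from the even probes of tumour 1 correlated at r = 0.45 over the 40 bins, which share the array and the genomic position. Chromosome 1 was thus about as uneven as chromosomes of this array that had no shift. In tumours 2, 3 and 4 the ratio for chromosome 1 was 2.02, 1.51 and 2.07.

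**Figure D3:**
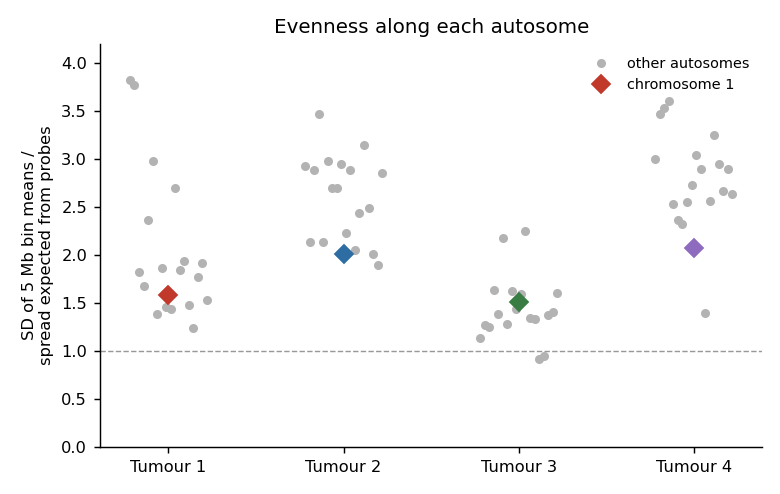
Evenness along each autosome: SD of the 5 Mb bin means over the spread expected from the scatter of probes within bins (y axis), per tumour (x axis). Diamonds are chromosome 1, grey points the other 18 autosomes, and the dashed line marks 1; chromosome 1 lies at 1.58 in tumour 1, within the 1.24 to 3.83 of the others.

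Over the 4 tumours, trends along chromosome 1 were smaller on average than the spread between tumours. The distal minus proximal difference read -0.0097, 0.0072, -0.0023 and 0.0036 across the tumours. It averaged -0.00027 ± 0.0074 (SD, n = 4; exact two-sided sign-flip permutation p = 1, and p = 1 adjusted over 3 contrasts), with 2 tumours below 0. The slope per 100 Mb was -0.0038, 0.026, 0.00050 and 0.00041, an average of 0.0058 ± 0.014 (SD, n = 4; exact permutation p = 0.625, adjusted p = 1). With 4 tumours this exact test cannot give a p below about 0.13, and so could not pass 0.05.

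Penalised least-squares segmentation placed the same profile into stretches. In tumour 1 it gave 4 stretches of at least 20 probes, all above 0, which averaged 0.096 (3002738 to 26470694), 0.088 (26511893 to 82910706), 0.11 (82945278 to 95975373) and 0.084 (95985814 to 197188286). A single probe at 1.12 lay after the first stretch and a single probe at 1.32, named AK020703, after the next. No stretch of tumour 1 returned to 0. In tumour 2 a step between 71642802 and 71650493 parted -0.062 from -0.017. That step was not placed with the penalty doubled, with the trend on probe G and C content removed or under normexp background correction. In tumours 3 and 4 the long stretches lay between -0.032 and 0.0040 and between 0.014 and 0.018. With the penalty doubled tumour 1 had 1 stretch, and with it halved it had 10, from 0.080 to 0.12.

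Only 2 stretches of more than 1 probe stood clear of the level of the chromosome, both in tumour 3 and both distal of the left-out window. Sdccag8, which encodes a centrosomal protein, was crossed by 9 probes (178753922 to 178848750, 94.8 kb) that averaged 0.17, 0.71, 0.88 and -0.022 in tumours 1 to 4. All 9 were at or above 0.76 in tumour 3 and at or above 0.53 in tumour 2, and none passed 0.29 in tumour 1 or 0.14 in tumour 4. At Ifi203 and Ifi202b, members of the interferon-inducible family of DNA-binding proteins, 4 probes (175868140 to 175901609, 33.5 kb) averaged 0.14, 0.50, 0.84 and 0.0063. Tumours 2 and 3 were high at both places and tumours 1 and 4 were not, a pattern unlike that of the chromosome mean. The reference was pooled from littermates, so at such short stretches a change in the tumour and a difference between mice cannot be told apart. Ifi genes are a family of related copies, to which probes may cross-hybridize. The left-out window itself, proximal of both stretches, averaged 0.096, 0.16, 0.11 and 0.012. The 72 probes in the last 1 Mb before it read 0.098, 0.046, -0.018 and -0.014. The 88 probes in the first 1 Mb after it read 0.093, -0.057, -0.016 and 0.040. In tumour 1 the level was therefore similar before, in and after the window.

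By the mean over the tumours, the highest bin was 90 to 95 Mb, with 0.12, 0.065, 0.019 and 0.026 in tumours 1 to 4 and an average of 0.058 ± 0.048 (SD, n = 4). This bin held 54 gene names, the most G and C of all bins (36.9%) and the top value of tumours 1 and 2 alike. It was followed by 185 to 190 Mb at 0.047 ± 0.040 and 105 to 110 Mb at 0.033 ± 0.049 (SD, n = 4). The lowest were 5 to 10 Mb at -0.0032 ± 0.083, 20 to 25 Mb at -0.00099 ± 0.067 and 100 to 105 Mb at -0.00019 ± 0.073 (SD, n = 4). In these lowest bins tumour 1 still read 0.093, 0.087 and 0.081, and tumour 2 read -0.11, -0.075 and -0.089.

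Base composition moved with the bins of some arrays. Over the 40 bins, whose probes held 35.7% to 36.9% G and C on average, the ratio correlated with it at r = 0.83 in tumour 2, 0.21 in tumour 1, -0.27 in tumour 3 and -0.49 in tumour 4. The 20 bins richer in G and C exceeded the 20 poorer ones by 0.061 in tumour 2, and by 0.0026, -0.0076 and -0.017 in tumours 1, 3 and 4 (average 0.0096 ± 0.035, SD, n = 4; higher in 2 of 4 tumours; exact permutation p = 0.875, adjusted p = 1). The number of gene names in a bin, which goes with base composition, correlated at r = 0.69 in tumour 2 and -0.60 in tumour 4, but at 0.036 in tumour 1 and -0.017 in tumour 3. The bins of chromosome 1 thus followed sequence content in opposite directions on arrays 2 and 4 and hardly at all in tumour 1. Over all 502 autosomal bins, r with G and C content was 0.0083, 0.58, 0.062 and -0.090 in tumours 1 to 4. Array 4 thus had little such trend outside chromosome 1. With a linear trend on probe G and C content removed, the mean of tumour 1 was 0.089, and with a trend on intensity removed it was 0.089 as well. The mean of tumour 2 was -0.030 and -0.0051 in these settings.

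**Figure D4:**
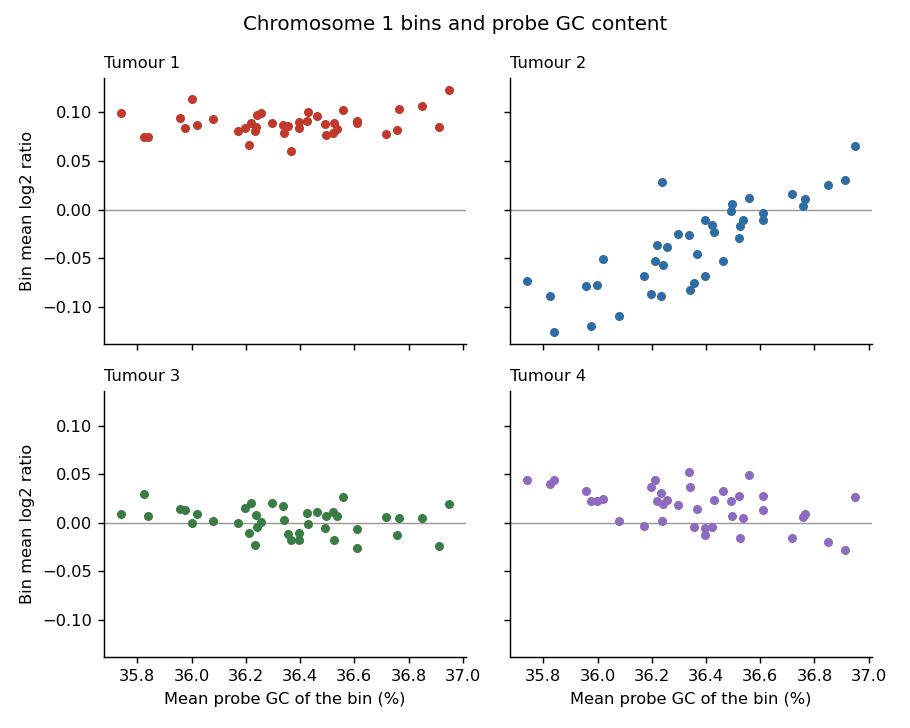
Mean log2 ratio of each 5 Mb bin of chromosome 1 (y axis) against the mean G and C content of its probes in percent (x axis), 1 panel per tumour and 1 point per bin. The points rise with G and C content in tumour 2 (r = 0.83) and stay near 0.088 across the range in tumour 1 (r = 0.21).

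The genes of chromosome 1 followed its level in tumour 1, more closely the more probes they had. Of the 1347 named genes, 978 were at or above 0.05 there, against 33.0% of the 21365 named autosomal genes, and their median was 0.093 against 0.0045. At or below -0.05 were 82 (30.7% of autosomal genes). The genes at or above 0.05 numbered 523 in tumour 2 (44.8%), 406 in tumour 3 (28.7%) and 426 in tumour 4 (28.1%). Those at or below -0.05 numbered 613 (40.6%), 364 (33.8%) and 404 (40.6%). Of the 186 genes with at least 10 probes, 162 were at or above 0.05 in tumour 1 (21.8% of autosomal genes with as many probes). There 184 of the 186 were above 0 and none was at or below -0.05. Of the 2291 autosomal genes with as many probes, 1215 were above 0 and 452 at or below -0.05 in that tumour. In tumours 2, 3 and 4, 36, 19 and 51 of the 186 were at or above 0.05, against 26.4%, 11.3% and 23.7%. Fbxo36, with 11 probes, and 1200016B10Rik, with 10, were the 2 below 0, at -0.023 and -0.015 (both named after their values were seen). The gene lists below hold 114 genes chosen for the chromosome, of which 105 were matched to an array name. In tumour 1, 81 of these (77.1%) were at or above 0.05, with a median of 0.085. That share was near the 72.6% of all named genes of the chromosome, so it says little about the lists themselves.

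Genes of the p53 pathway and of cell death had 9 members on the array, with a median of 0.16 in tumour 1. Of them, 7 were at or above 0.05 there, against 72.6% of all named genes of the chromosome. Bcl2, which blocks mitochondrial cell death, read 0.068, 0.057, 0.064 and 0.048 over 19 probes in tumours 1 to 4, so its ratio was similar in all 4. Mdm4, an inhibitor of p53, read 0.041, 0.017, -0.023 and -0.052 over 6 probes, below the chromosome mean in tumours 1, 3 and 4. Casp8, the caspase that starts death-receptor signalling, read 0.17 in tumour 1 and Trp53bp2, a p53-binding protein, read 0.21, each over 5 probes. In the other tumours these 2 genes lay between -0.089 and 0.10, below tumour 1.

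Genes of the cell cycle and of chromosome segregation had 14 members, with a median of 0.061 in tumour 1. Of them, 9 were at or above 0.05 there, against 72.6% of all named genes of the chromosome. Those with the most probes lay below the chromosome mean there. Cdc73, a subunit of a complex that travels with RNA polymerase, read 0.059 over 12 probes, Cul3, a scaffold of ubiquitin ligases, read 0.039, Mcm6, a subunit of the replicative helicase, read 0.029, and Lin9, a subunit of a cell-cycle transcription complex, read -0.00090. Cul3 read -0.24 in tumour 2 and between 0.033 and 0.039 in the other 3. Kif14, a mitotic kinesin with a single probe, read -0.55 in tumour 1 and was the lowest of all list genes. Its probe read 0.081, 0.013 and -0.16 in tumours 2 to 4.

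All 7 DNA repair genes were above 0 in tumour 1 (87.2% of all named genes of the chromosome were), with a median of 0.12. Of them, 6 were at or above 0.05 (72.6%). Xrcc5, the Ku80 gene of DNA end joining, read 0.12 in tumour 1 and 0.0016, 0.0046 and -0.016 in the others over 9 probes. The SD of single probes of the chromosome was 0.13 in tumour 1 and 0.38 in tumour 2, so a mean of 9 probes is imprecise. Ercc5, a nuclease of nucleotide excision repair, read 0.10, -0.015, 0.0027 and 0.040, and Smarcal1, which remodels stalled replication forks, read 0.096, 0.0058, 0.032 and 0.029. Bard1, the partner of BRCA1, read 0.038, -0.22, -0.026 and 0.032. Tumour 1 was the highest at each of these 4 genes.

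Growth factor and kinase genes had 15 members, with a median of 0.10 in tumour 1. There 13 were at or above 0.05 and all were above 0, against 72.6% and 87.2% of all named genes of the chromosome. Erbb4, a receptor tyrosine kinase with 74 probes, read 0.049, -0.16, 0.024 and 0.053, and here tumour 4 was level with tumour 1. Ddr2, a collagen receptor, read 0.10, 0.13, 0.0043 and 0.075 over 14 probes. Map4k4, a kinase upstream of stress signalling, read 0.093, -0.012, 0.036 and -0.029 over 13 probes. In tumour 4, 10 of the 15 were at or above 0.05 too, some of them (Igfbp2 and Inhbb) with 1 probe each. There 38.1% of the genes of all lists together, 31.6% of all named genes of the chromosome and 28.1% of named autosomal genes were.

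Hepatocyte and plasma protein genes had 22 members, with a median of 0.081 in tumour 1. Of them, 15 were at or above 0.05 there, against 72.6% of all named genes of the chromosome. Nr5a2, a nuclear receptor of bile acid and cholesterol genes, read 0.085, -0.057, -0.031 and -0.0043 over 10 probes. Fn1, which encodes fibronectin, read 0.22, 0.060, 0.021 and 0.086, and Cyp27a1, an enzyme of bile acid synthesis, read 0.087, -0.025, -0.096 and -0.037. Tumour 1 was the highest at all 3.

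Transcription regulators of development had 14 members, with a median of 0.082 in tumour 1. Of them, 12 were at or above 0.05 there, against 72.6% of all named genes of the chromosome. Hdac4, a histone deacetylase, read 0.089, -0.069, -0.0060 and 0.047 over 23 probes, and Esrrg, an orphan nuclear receptor, read 0.10, 0.029, 0.042 and 0.074 over 24. Tumour 1 was the highest at both. Immune receptor and cytokine genes had 10 members with few probes, of which 6, 6, 5 and 5 were at or above 0.05 in tumours 1 to 4. Of all named genes of the chromosome, 72.6%, 38.8%, 30.1% and 31.6% were. Cd247, the zeta chain of the T cell receptor complex, read 0.051, -0.11, -0.027 and -0.026 over 9 probes. Icos, a costimulatory receptor of T cells, read 0.10, 0.14, -0.065 and 0.16 over 4 probes. Pdcd1, an inhibitory one, read 0.087, 0.60, 0.091 and 0.15 over 4, with tumour 1 the lowest. Il1rl1, a receptor for interleukin 33, read 0.096, 0.19, 0.38 and -0.26 over 3. Tumour 1 was the highest at Cd247 and at none of the other 3.

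Long genes gave the most precise values, with a median of 0.082 in tumour 1. There 15 of 17 were at or above 0.05 and all 17 were above 0. Of all chromosome 1 genes with at least 10 probes, 87.1% and 98.9% were. Spag16, a gene of the sperm tail with 97 probes, read 0.091, -0.075, 0.0020 and 0.050. Thsd7b, with 95 probes, read 0.071, 0.0040, 0.00092 and -0.016, and Dpp10, with 79, read 0.070, -0.10, -0.012 and 0.030. The highest of the long genes in tumour 1 was Dst, at 0.17 over 30 probes, and the lowest was Erbb4. Dst, like Kif14 above, was named after its value was seen. Plcl1, at 0.04997, was the second just under 0.05, and the other 14 lay between 0.061 and 0.11. In tumour 4, 9 of the 17 long genes were at or above 0.05, and in tumours 2 and 3 none was, where 23.7%, 26.4% and 11.3% of autosomal genes with at least 10 probes were. The genes of these lists were chosen with earlier results of these data known, and neighbours share segments, so the counts are no independent evidence of the shift.

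**Figure D5:**
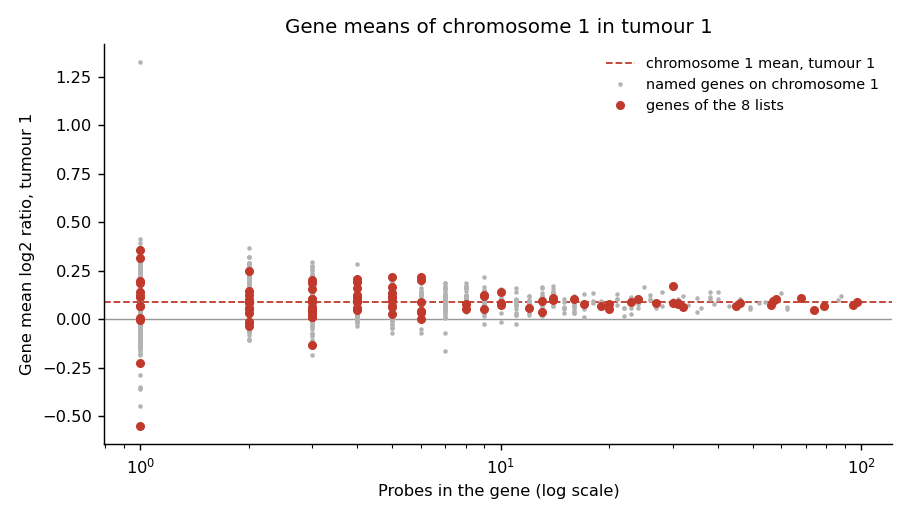
Mean log2 ratio of each named gene of chromosome 1 in tumour 1 (y axis) against its number of probes (x axis, log scale); grey points are all 1347 named genes and red points those of the 8 lists. Genes with few probes scatter widely and those with many lie close to the chromosome mean of 0.088 (dashed line).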

How the data were processed

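Per the file headers, the deposited intensity values came from Agilent Feature Extraction 12.0.1.1 (12.0.0 per the submitters' processing notes), with probes placed on mm9. The processed intensities were background-subtracted, detrended and scaled by 1 linear factor per dye, per the file headers. Scanner mean and background intensities, deposited without these steps, fed the normexp alternative. The deposited log10 ratio served only to check the direction. Both differed by under 0.001 at no less than 99.7% of an array's spots.

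Log2 of red over green was computed from the processed signals. Spots marked as non-uniform or as population outliers were left out, replicate spots averaged and arrays centred on their autosomal median. No loess or quantile step was used. Bins of 5 Mb needed at least 20 probes. Segmentation used as penalty 3 times the noise variance, multiplied by the natural log of the autosomal probe count. A planned limma fit of the bins against 0 is not reported, since the same means chose the chromosome. Normexp correction used limma 3.58.1 in R 4.3.3; other steps used Python 3.11.15, numpy 2.4.6, pandas 2.3.3 and numba 0.67.0. Contrasts were tested with exact sign-flip permutations over 4 tumours. Segmentation was tested on simulated data, and the sign-flip step on fixed vectors with known answers.

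The members and gene lists were chosen with earlier results of these data known. Named genes were the up to 4 of each list with the most probes, some of which are not reported here; named bins were the 3 highest and 3 lowest by the mean over tumours. Alternatives covered background correction, centring, trends, dim and marked spots, the window, bin size, penalty, dye direction and each tumour left out. Slide was an alternative only in the limma fit that is not reported. Precision is limited by the number of arrays.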

Additional observations from a re-analysis of the deposited data

Results flagged for a closer look

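Of 41 sets of 4 tumour values examined, 6 had 1 tumour far from the others by Dixon's criterion, which chance alone meets in about 1 of 20. Tumour 2 stood apart in 5 of them, and its array was the noisiest. Its slope along the chromosome was 0.026 per 100 Mb, its value for Cul3 was -0.24, for Mcm6 -0.14, for Erbb4 -0.16 and for Pdcd1 0.60. Tumour 1 stood apart at Xrcc5, at 0.12, on a chromosome to which the mean of tumour 1 had drawn attention.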

How the results depend on the processing

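The mean of chromosome 1 in tumour 1 stayed between 0.081 and 0.12 over 13 alternatives that kept its sign as labelled, and was 0.12 under normexp background correction. That of tumour 2 ran from -0.080 (centred on the autosomal mode) to -0.0051 (intensity trend removed). With the sign of tumour 1 turned its mean was -0.088 and 0 of its bins were at or above 0.05. At a threshold of 0.1, 6 of its bins passed, and 3 bins of tumour 2 passed below -0.1. The count of tumour 2's bins at or below -0.05 was 29 with mode centring, 4 with the intensity trend removed and 10 with medians over probes. The spread ratio of tumour 1 was 1.90 in 10 Mb bins. Its long stretches numbered 10 at a penalty factor of 1.5 and 1 at 6. The average over tumours ran from -0.0054 to 0.035 with 1 tumour left out. The distal minus proximal difference, near 0 throughout, turned positive with even probes only (0.00062), the sign of tumour 1 turned (0.0046), no window left out (0.0011) or a wider window left out (0.000047), and ran from -0.0028 to 0.0029 with 1 tumour left out. The slope ran from -0.00098 to 0.0090 and the G and C difference from -0.0075 to 0.019 with 1 tumour left out, the lowest of each without tumour 2. Over the alternatives exact permutation p ranged from 0.375 to 1 for the G and C difference. For the other contrasts it ranged from about 0.13, the smallest possible, to 1: the distal minus proximal difference reached it with medians over probes (-0.0034), and the slope under normexp (0.012) and with the sign of tumour 1 turned (0.0077). Cdc73 read -0.0045 in tumour 1 under normexp. The cause of these changes was not tested. No paired analysis was possible because the design has 1 group.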
